A study of Mus musculus with 16 samples.

Results

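The hemicentin genes of the mouse, Hmcn1 and Hmcn2, were described in 8 lists of peaks from RNA immunoprecipitated with THOC5, a subunit of the THO complex that joins transcription to mRNA export. Both genes were looked up in every list, and 1 of the 2, Hmcn1, had peaks, 84 in all among 28998 peaks and 4051 genes with a peak. Hmcn1 was chosen by the number of its peaks in these same lists, which was higher with overexpression than without, so that contrast is given below as a description with no test. Hmcn2 had 0 peaks in each of the 8 lists.

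The lists came from primary mouse vascular smooth muscle cells, the contractile cells of the vessel wall, under 4 conditions with 2 lists each. THOC5 OE cells overexpressed THOC5 and are labelled with that genotype; the other conditions are labelled WT. GFP OE cells overexpressed green fluorescent protein, and both overexpression conditions were kept in osteogenic medium, which drives the cells towards a bone-like, calcifying state. Pi cells were in osteogenic medium and Ctrl cells in growth medium, both without overexpression. The labels name neither the vector nor the promoter behind the overexpression, and do not say whether replicates were separate cultures, so a p-value measures only the spread between these lists. The 8 matched input samples were not analysed here.

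Hemicentins are very large secreted proteins built mostly of repeated immunoglobulin domains, with a von Willebrand factor A domain at one end and EGF-like modules at the other. They lie in the extracellular matrix at basement membranes and at junctions between tissues. The family was first studied in Caenorhabditis elegans, where hemicentin holds tissues and their basement membranes together. THOC5 immunoprecipitation samples the RNA of such a gene, not its protein. Introns are removed by splicing, but a peak labelled as intronic may also cover part of an exon.

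Hmcn1 lies on the minus strand of mouse chromosome 1 (GRCm38/mm10), at chr1:150562500-150993652, a span of 431153 bp. Its peaks were annotated on 1 RefSeq transcript with 107 exons and 106 introns. Hmcn2 lies at chr2:31314255-31460738 and spans 146484 bp. Each list has 1 peak width, between 415 and 553 bp, so a peak covers a small stretch of either gene.

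In THOC5 OE, Hmcn1 had 21 peaks in list 1 and 23 in list 2. In GFP OE it had 21 peaks in list 1 and 14 in list 2. In Pi it had 0 and 2 peaks, and in Ctrl 0 and 3. The lowest overexpression list thus held more Hmcn1 peaks than the highest Pi or Ctrl list, and the groups did not overlap. The 4 overexpression lists held 79 of the 84 peaks, with a mean of 19.75 ± 3.95 per list (SD, n = 4), against 1.25 ± 1.5 in the 4 Pi and Ctrl lists (SD, n = 4).

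**Figure D1:**
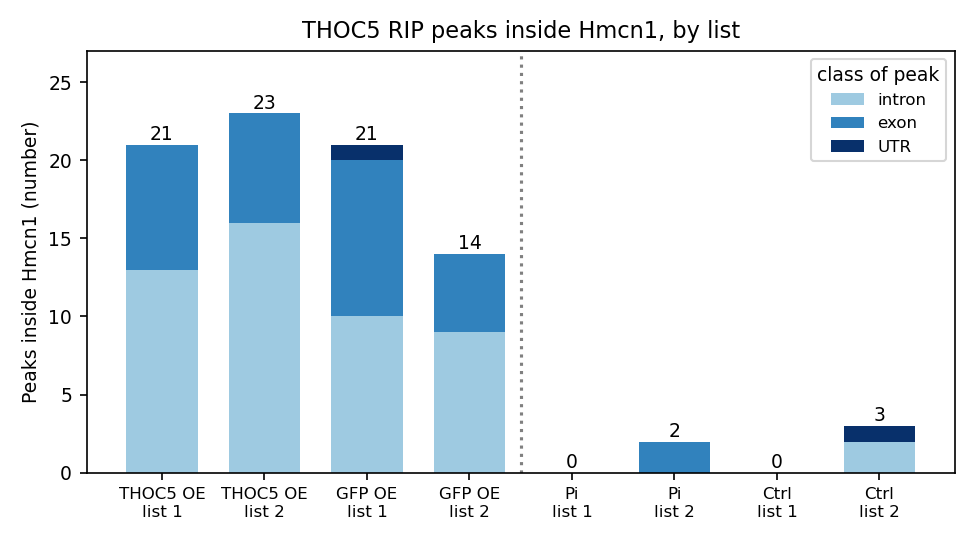
Number of THOC5 RIP peaks inside Hmcn1 (vertical axis) in each of the 8 lists (horizontal axis), stacked by whether the annotation puts the peak in an intron, an exon or a UTR. The overexpression lists left of the dotted line hold 14 to 23 peaks each, and the Pi and Ctrl lists right of it hold 0 to 3.

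Over all 8 lists together, Hmcn1 counts did not follow the order of list lengths. Among Pi and Ctrl lists, only the longer list of each condition held Hmcn1 peaks, and among overexpression lists the shortest held the fewest. What part list length had in the counts was not tested. The THOC5 OE lists held 4618 and 4240 peaks, the GFP OE lists 3711 and 2572, the Pi lists 2666 and 3793, and the Ctrl lists 2603 and 4795. Per 1000 peaks of its list, Hmcn1 had 4.55 and 5.42 in THOC5 OE lists, 5.66 and 5.44 in GFP OE lists, 0 and 0.527 in Pi, and 0 and 0.626 in Ctrl. The longest list, Ctrl 2, thus had 3 Hmcn1 peaks, and the shortest, GFP OE 2, had 14. By number of peaks, Hmcn1 was the 10th and 6th ranked gene of the THOC5 OE lists and the 9th and 7th of the GFP OE lists. Its rank was 311 in Pi 2 and 273 in Ctrl 2.

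Across all 4051 genes with a peak, 74 (1.83%) had more peaks in every overexpression list than in any Pi or Ctrl list, and 34 (0.839%) had fewer. That balance was 83 above and 83 below without Pi 1, and 29 above and 33 below with 1 common score floor, a setting chosen after seeing the data. In each other setting tried, more genes lay above than below, from 78 and 66 without Ctrl 1 to 161 and 37 without GFP OE 2. Hmcn1 is among the 74 because it was chosen for this pattern, and its difference of 18.5 peaks per list was the second of all genes after Dnah7b, a gene for an axonemal dynein heavy chain. The difference of Dnah7b was 19.5, and the median over all genes was -0.25. At least 5 more peaks per list in overexpression lists were found for 30 genes.

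The scores of the lists moved with the same contrast. Low scores fall on whole multiples of a step, which was 0.292 and 0.287 in THOC5 OE and 0.282 and 0.35 in GFP OE, against 1.58 and 1.14 in Pi and 0.726 and 0.758 in Ctrl. The weakest peak retained scored 6.72 and 6.31 in THOC5 OE lists, 10.2 and 12.6 in GFP OE lists, 20.5 and 14.9 in Pi, and 29 and 15.9 in Ctrl. The Hmcn1 peaks of Ctrl 2 scored 18.2 to 22.7, all below the weakest peak of Ctrl 1. Those of Pi 2 scored 18.3 and 21.7, the first of them below the weakest peak of Pi 1. Peaks with such scores could not appear in Ctrl 1 or Pi 1, which had no Hmcn1 peak. What scale the score has is not stated in the labels or headers, and what part a different depth of the lists had in the Hmcn1 count was not tested. With the common floor, a score of 29 for every list, Hmcn1 had 15 and 17 peaks in the THOC5 OE lists, 12 and 9 in the GFP OE lists, and 0 in each Pi and Ctrl list. With every list cut to its 2572 strongest peaks, Hmcn1 had 7 and 11 peaks in THOC5 OE lists, 10 and 14 in GFP OE lists, and 0 in each Pi and Ctrl list. Above the median score of each list it had 6 and 5 peaks in THOC5 OE lists and 0 and 1 in GFP OE lists, so that GFP OE 1 no longer lay above the Pi and Ctrl lists, which all had 0.

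Most Hmcn1 peaks were of middling or low strength for their list. As a percentile of the score within its list, where 100 is the strongest peak, the median Hmcn1 peak stood at 38.2 and 37.8 in THOC5 OE and at 28.6 and 30.8 in GFP OE. The median was 3.45 over the 2 peaks of Pi 2 and 2.51 over the 3 of Ctrl 2. The best Hmcn1 peak reached percentile 62.4 and 63.1 in THOC5 OE and 49.6 and 54.1 in GFP OE, against 5.4 in Pi 2 and 9.85 in Ctrl 2. Both THOC5 OE lists stood above both GFP OE lists in these percentiles, which 2 lists against 2 cannot take below an exact p of 0.333. Of the 79 peaks of the overexpression lists, 12 lay above the median score of their list.

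**Figure D2:**
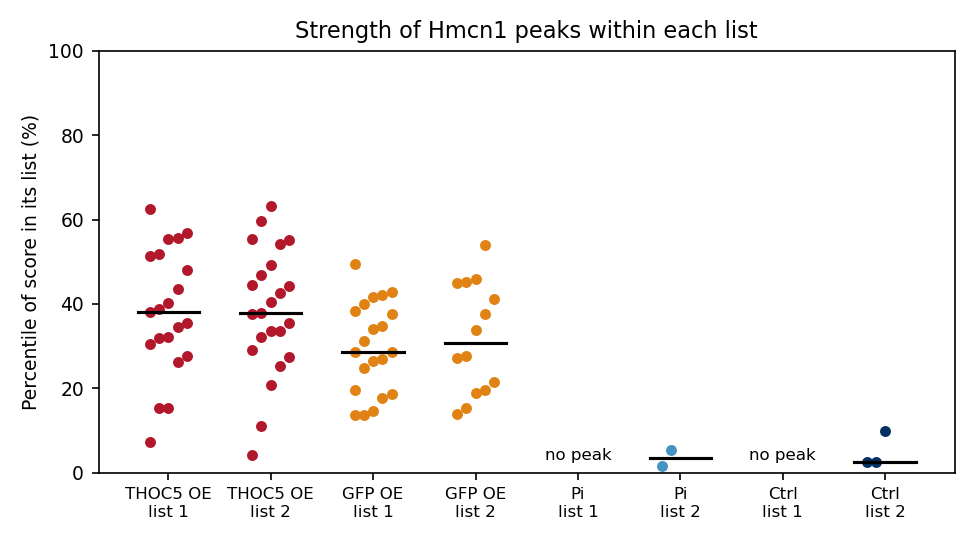
Score of each Hmcn1 peak as a percentile of all peaks of its list (vertical axis, 0 to 100%), by list; each point is 1 peak and each bar the median of a list. Medians lie at 28.6 to 38.2 in the overexpression lists and at 3.45 and 2.51 in Pi 2 and Ctrl 2, and 2 lists have no Hmcn1 peak.

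Whether overexpressed THOC5 changed Hmcn1 relative to overexpressed GFP is a contrast between 2 conditions in the same medium. Hmcn1 averaged 22 ± 1.41 peaks over THOC5 OE lists and 17.5 ± 4.95 over GFP OE lists (SD, n = 2 each), a difference of 4.5 peaks with a two-sided exact permutation p of 0.667 over 6 splits. The first lists of both conditions had 21 peaks, so the groups overlapped. Both THOC5 OE lists lay above both GFP OE lists in 365 of 4051 genes (9.01%), and Hmcn1 was not among them. Per 1000 peaks the order was the other way, at 4.99 ± 0.620 in THOC5 OE and 5.55 ± 0.152 in GFP OE (SD, n = 2 each), a difference of -0.57 with an exact p of 0.333, the smallest this design allows. THOC5 OE lay wholly above GFP OE by 5.5 peaks with the common floor and by 5 above the median score, each with an exact p of 0.333. With every list cut to the length of the shortest, the order of the means was the other way. The THOC5 OE lists then had 7 and 11 peaks and the GFP OE lists 10 and 14. That difference was -3, with an exact p of 0.667. These lists thus resolved no difference of Hmcn1 between THOC5 OE and GFP OE.

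Osteogenic medium without overexpression gave no resolved difference from growth medium, but this contrast could hardly have shown one. With 2 lists against 2 the exact p cannot fall below 0.333, and Hmcn1 was chosen for lower counts in the lists without overexpression. Hmcn1 averaged 1 ± 1.41 peaks in Pi and 1.5 ± 2.12 in Ctrl (SD, n = 2 each), a difference of -0.5 with a two-sided exact permutation p of 1. In each condition 1 list held no Hmcn1 peak, and the sign of the difference turned when Pi 1 or Ctrl 2 was left out, to 0.5 and 1. The Pi lists share the osteogenic medium with the overexpression lists and had 0 and 2 Hmcn1 peaks. Hmcn1 was chosen on that contrast, and the score steps of the lists differ with it. What part the medium had in the counts was not tested.

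Both exons and introns of Hmcn1 carried peaks. Introns held 13 and 16 Hmcn1 peaks in THOC5 OE lists, 10 and 9 in GFP OE lists, 0 in both Pi lists, and 0 and 2 in Ctrl. Exons held 8 and 7 in THOC5 OE lists, 10 and 5 in GFP OE lists, 0 and 2 in Pi, and 0 in both Ctrl lists. GFP OE 1 had 1 further peak in the 3′ UTR and Ctrl 2 had 1 in the 5′ UTR. Together the overexpression lists had 48 intron, 30 exon and 1 UTR peak, and the Pi and Ctrl lists 2, 2 and 1. Over all lists, the peaks were assigned to 30 different introns and 18 different exons.

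The intron share of Hmcn1 peaks was 61.9% and 69.6% in THOC5 OE and 47.6% and 64.3% in GFP OE, a mean of 60.8% ± 9.38 (SD, n = 4). Among all peaks inside genes the intron share of the same lists was 61.6% and 62.6% in THOC5 OE and 57.6% and 63.8% in GFP OE. Hmcn1 thus lay within 1 SD of the mean of all such peaks in these lists, 61.4%. Over all genes, Pi lists had 58.8% and 56.4% in introns and Ctrl lists 52.9% and 54.2%, each but Pi 1 below all overexpression lists.

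Exon peaks of Hmcn1, UTR peaks included, stood higher in their lists than its intron peaks did. In THOC5 OE the median percentile of exon peaks was 49.7 and 46.9, against 32.2 and 33.5 for intron peaks. In GFP OE it was 38.4 and 37.7 for exon peaks, against 25.6 and 21.6 for intron peaks. The order was the same in all 4 overexpression lists, and it was also that of all peaks inside genes, whose exon medians were 62.7 to 66.7 and intron medians 44.0 to 45.0 in these lists. The share of Hmcn1 peaks in introns was lower among strong peaks, with a mean of 37.3% over the overexpression lists when each list was cut to 2572 peaks and of 31.1% over the peaks above the median score. The 31.1% is a mean of 3 lists, from 2 of 6 and 3 of 5 peaks in THOC5 OE and 0 of 1 in GFP OE 2, since GFP OE 1 had no peak above that median. It was 46.7% without GFP OE 2, and 41.7% over the 12 peaks together.

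Overlapping peaks of different lists, joined from 1 shared base, formed 36 sites along Hmcn1. Of these, 24 were found in at least 2 lists and 12 in a single list. Overexpression lists shared 7 sites in all 4, 6 in 3 of them and 10 in 2, and 13 sites were in 1 of them. All 5 peaks of the Pi and Ctrl lists fell on a site also present in an overexpression list, at 5 different sites. Peak centres within a shared site spanned a median of 103 bp, and 452 bp at most, which is under the width of a peak in 4 of the 8 lists. In 9 of the 24 shared sites, some lists had an exon or UTR label and others an intron label. The class of a peak near an exon edge thus depended on where its centre fell. An intron label in every list was found at 12 shared sites, and an exon or UTR label in every list at 3. Of the 12, those at 362.8, 249.7 and 117.1 kb from the transcript start had labels of neighbouring introns (74 and 73, 24 and 23, 2 and 1). An exon thus lay between their peak centres.

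Sharing did not follow the overexpressed protein alone. The THOC5 OE lists shared 15 sites, which is 71.4% of those of list 1 and 65.2% of those of list 2. The GFP OE lists shared 8 sites, 38.1% of those of list 1 and 57.1% of those of list 2. Between THOC5 OE and GFP OE lists, 10 to 13 sites were shared. Sites present in both THOC5 OE lists and nowhere else numbered 3, and there were 0 such sites for GFP OE.

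The sites were uneven along the gene. Cut into 4 equal stretches of 107.734 kb from the transcript start, Hmcn1 had 1, 6, 14 and 15 sites, and the overexpression lists had 4, 17, 31 and 27 peaks there. The Pi and Ctrl lists had 1, 1, 1 and 2. A stretch of 115905 bp, from 150876788 to 150992694 and thus 26.9% of the gene, held no peak in any list. The next largest gap was 39009 bp, and the median gap between sites was 6677 bp. The peaks thus covered the middle and the 3′ part of Hmcn1, plus 1 site at its start. The empty stretch of 115905 bp lay between a peak labelled intron 1 and the site in exon 1. By their labels, the sites of the 4 stretches lay in exon 1, from intron 1 to exon 11, from intron 12 to exon 49, and from exon 54 to exon 107. The exons were thus uneven along the gene too, and whether the sites follow them was not tested.

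**Figure D3:**
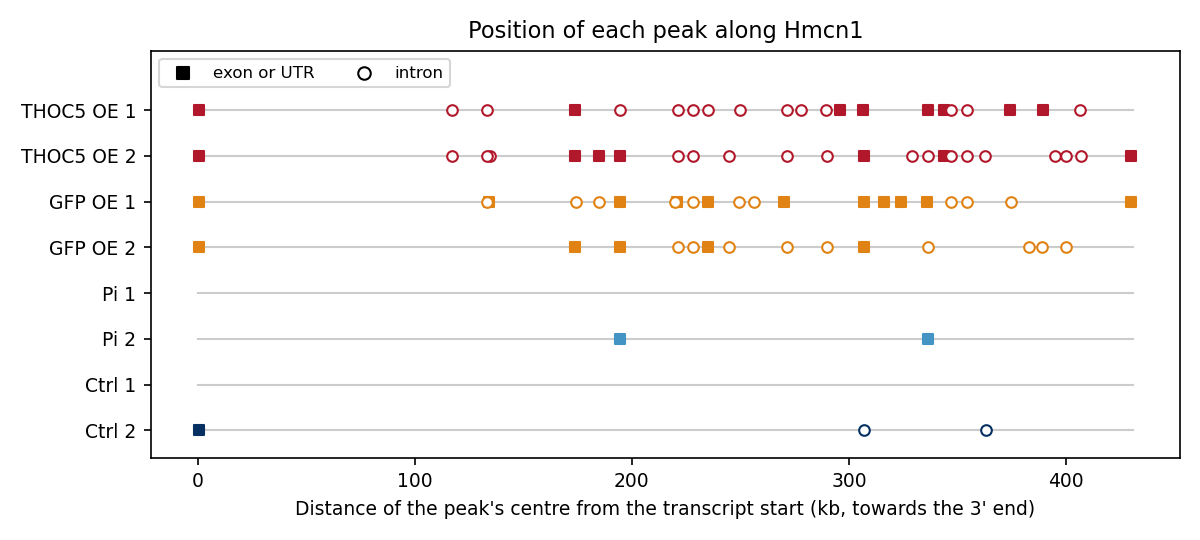
Distance of the centre of each Hmcn1 peak from the transcript start (horizontal axis, kb) in each list (rows), with filled squares for exon or UTR peaks and open circles for intron peaks; the grey line is the gene. Of the 36 sites, 7 line up over all 4 overexpression lists and 13 are in only 1 of these lists. The first stretch of the gene holds peaks only at its start.

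That start site, chr1:150992694-150993330, held the strongest Hmcn1 peak of each overexpression list and of Ctrl 2. Its score was 80.4 and 86.3 in THOC5 OE lists, 52.8 and 64.8 in GFP OE lists, and 22.7 in Ctrl 2, with no peak in Ctrl 1 or either Pi list. The weakest peak retained in Ctrl 1 scored 29, so a peak scoring 22.7 could not appear there. The annotation placed the start site in exon 1 in the overexpression lists and in the 5′ UTR in Ctrl 2. The nearest edge of the peak lay 203 to 215 bp inside the transcript in the overexpression lists and 105 bp in Ctrl 2. In no list did it reach the window from 250 bp before to 50 bp after the start.

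The other 6 sites of all 4 overexpression lists lay further along the transcript. The site at chr1:150819123-150819703 was placed in exon 5 in 3 lists and in intron 5 in GFP OE 1. The site at chr1:150798475-150799146 was in exon 11, with the label intron 11 in THOC5 OE 1, and Pi 2 had a peak there too. The sites at chr1:150772096-150772661 and chr1:150764899-150765447 lay at exon 13 and intron 13, and in intron 15. The site at chr1:150686410-150686958 was in exon 45, with a peak of Ctrl 2 in intron 45 beside it. The site at chr1:150656681-150657612 spanned exons 59 and 60 and intron 60, and held the other peak of Pi 2.

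Of the 84 Hmcn1 peaks, 2 lay on repeats by the detailed annotation, 1 in THOC5 OE 1 and 1 in GFP OE 2. Without peaks on repeats, Hmcn1 kept 20 and 23 peaks in THOC5 OE lists, 21 and 13 in GFP OE lists, 0 and 2 in Pi, and 0 and 3 in Ctrl. The authors' nearest-gene column names Hmcn1 for 40 of its 84 peaks and Prg4, the gene for lubricin, for the other 44; that column goes by the closest transcript start. By the nearest gene, Hmcn1 had 9 and 10 peaks in THOC5 OE lists, 12 and 7 in GFP OE lists, 0 and 1 in Pi, and 0 and 1 in Ctrl, which lowered the counts but left the groups without overlap.

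The genes beside Hmcn1 did not share its count. They span only 16810 bp (Prg4) and 1676 bp (3110040M04Rik) against 431153 bp for Hmcn1, so their counts cannot be compared directly with its own. Prg4, which lies 96.3 kb beyond the 3′ end of Hmcn1, had 1 peak inside it, in Ctrl 2, and none in the other 7 lists. The other neighbour, 3110040M04Rik, 210 kb beyond the start of Hmcn1, had 0 peaks in all 8 lists. Within 500 kb on each side of Hmcn1, the overexpression lists had 5 peaks in all, every one in a THOC5 OE list and 0 in GFP OE lists. The Pi and Ctrl lists also had 5, in Pi 2, Ctrl 1 and Ctrl 2. Thoc5 itself, at chr11:4895283-4928867, had 1 peak, in Ctrl 2, and these lists give no level of the transgene.

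Genes whose peaks per 1000 followed those of Hmcn1 most closely over the 8 lists were sought among 691 genes with at least 10 peaks. The 8 points fall in the same 2 clusters as the conditions and share their lists, so the correlation describes that contrast and is given with no p. Nav3, a neuron navigator gene, had a Pearson r of 0.993, with 15, 15, 15 and 10 peaks in THOC5 OE and GFP OE lists, against 3, 5, 2 and 7 in Pi and Ctrl lists. Focad, which encodes focadhesin, also had 0.993, with 15, 14, 13 and 10 against 0, 1, 0 and 3. Focad was thus, like Hmcn1, nearly without peaks in Pi and Ctrl. Dnah7b followed with 0.981 and 31, 27, 29 and 17 peaks against 3, 9, 2 and 12. Ccdc171 had 0.976 with 14, 12, 11 and 7 against 2, 4, 1 and 3, and Ccser1 0.954 with 2, 3, 3 and 2 against 0, 1, 0 and 1.

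Beside Hmcn1 were set basement membrane and fibulin genes, and integrin and plakin genes whose worm relatives act with hemicentin, 46 genes in all. Of these, 23 had a peak in some list. None of the 23 had more peaks in every overexpression list than in every Pi and Ctrl list, against 1.83% of all genes. Col4a1, a chain of type IV collagen, had fewer, with 0 peaks in the 4 overexpression lists and 1 in each Pi and Ctrl list (4.35% of the 23, against 0.839% of all genes). The median difference between overexpression lists and Pi and Ctrl lists was -0.75 peaks for the 23 and -0.25 for all genes. With so few genes set apart in all, these counts do not separate the 23 from other genes.

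The fibulins, secreted proteins of the matrix that share modules with hemicentins, had few peaks: Fbln2 had peaks in 3 lists, Pi 2, Ctrl 1 and Ctrl 2, and Fbln1, Fbln5, Fbln7, Efemp1 and Efemp2 had none. The nidogens, which link laminin to type IV collagen, were unlike each other. Nid2 had 2 peaks in every list but Ctrl 1, which had 3, and Nid1 had 1 peak in THOC5 OE 1, THOC5 OE 2, GFP OE 2 and Pi 1 and none elsewhere. Agrn, the proteoglycan agrin, had 2 peaks in each overexpression list and 1, 1, 1 and 2 in Pi and Ctrl lists. Hspg2, the proteoglycan perlecan, had 1 and 0 in THOC5 OE lists, 0 and 1 in GFP OE lists, 2 and 1 in Pi, and 2 and 2 in Ctrl. Lama4 and Lama5, laminin alpha chains, had 5 or fewer peaks in every list. Among other type IV collagen chains, Col4a2, Col4a5 and Col4a6 had 0 to 2 peaks a list.

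Among the remaining members, Fbn1, the microfibril protein fibrillin, had 2 and 3 peaks in THOC5 OE lists, 1 and 2 in GFP OE lists, 3 and 5 in Pi, and 2 and 7 in Ctrl. Smoc1, Pxdn and Itgb1, an integrin beta chain, had 0 to 2 peaks a list. The members with many peaks were Dst and Macf1, large plakins that link the cytoskeleton to other structures. Dst had 15 and 10 peaks in THOC5 OE lists, 20 and 11 in GFP OE lists, 13 and 17 in Pi, and 19 and 17 in Ctrl. Macf1 had 10 and 7 in THOC5 OE lists, 11 and 5 in GFP OE lists, 8 and 13 in Pi, and 13 and 14 in Ctrl. In both of these genes the ranges of overexpression lists and of Pi and Ctrl lists overlapped, unlike those of Hmcn1.

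**Figure D4:**
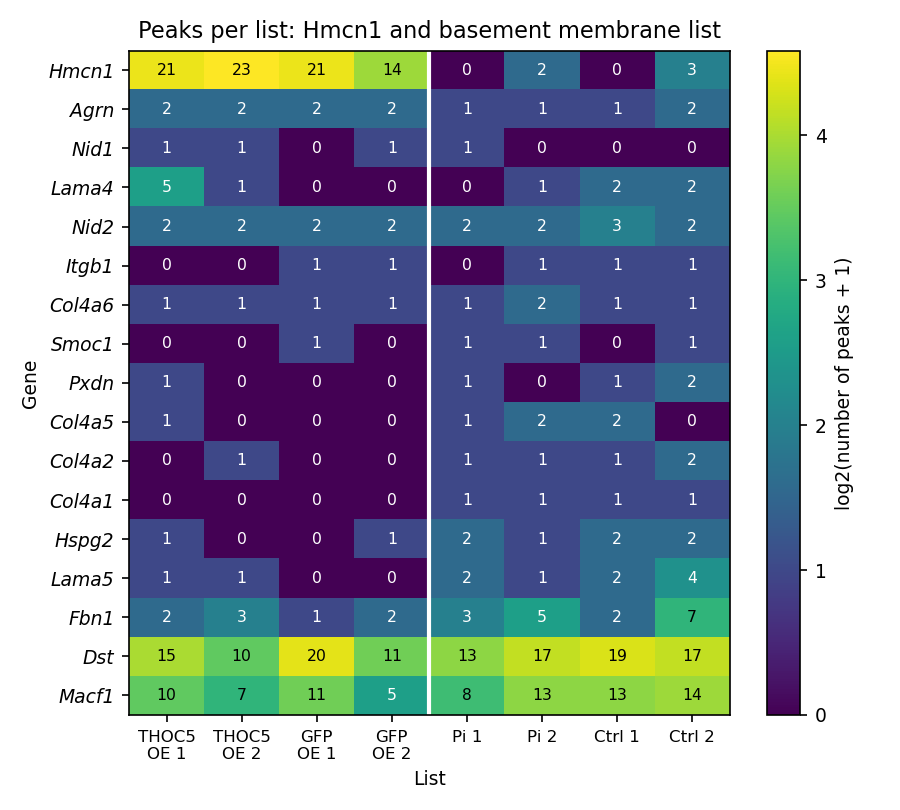
Number of peaks (printed in each cell, coloured by log2 of the number plus 1) of Hmcn1 and of the members of the basement membrane list with peaks in at least 4 lists, by list; the white line parts overexpression lists from Pi and Ctrl lists. Hmcn1 has 14 to 23 peaks left of the line and 0 to 3 right of it, and Dst and Macf1 have 5 or more on both sides.

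The labelled cell type can be read only in part from peaks, which are not expression levels. Of 8 smooth muscle markers, 5 had a peak, with Mylk, myosin light chain kinase, in all 8 lists (5 to 11 peaks) and Myh11, Cnn1 and Myocd in none. The other 4 had 0 peaks in every overexpression list and 1 peak in each of a few others: Acta2 in Pi 2, Ctrl 1 and Ctrl 2, Tagln in Ctrl 2, Smtn in Pi 1 and Ctrl 2, and Lmod1 in Pi 2. These 4 markers rest on single peaks, and none of them had a peak in every Pi and Ctrl list. The share of all genes with peaks only in Pi and Ctrl lists was not counted, so nothing is read from these 4. Their part in the Hmcn1 contrast was not tested. Of 4 endothelial and 4 leukocyte markers 0 had a peak, and of 4 fibroblast markers 1, Pdgfra in Pi 1. The cultures were bulk samples, so more cells with Hmcn1 RNA and more Hmcn1 RNA per cell cannot be told apart. A higher level of the transcript and more of it bound to THOC5 cannot be told apart here either, and a list without a peak may still come from cells in which THOC5 bound the RNA. Overexpression and any other feature of the cultures or libraries that the 4 overexpression lists share, the score step included, cannot be told apart in this design.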

How the data were processed

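Per the labels' protocols, the immunoprecipitation used a Magna RIP kit, and rRNA was removed before library preparation. The submitters' processing notes name Bowtie2, MACS2, SAMtools, FastQC and mm10, giving neither role nor version. HOMER's annotatePeaks.pl annotated the peaks, per the file headers. The peak score is the authors' value as deposited, on an unstated scale; it ranked peaks within a list and, compared between lists, gave the common floor and the steps. Low scores (under 60) were whole multiples of a step in 98.39% to 100% of cases (within 0.005 below 10 and 0.05 from 10), where 6.328% to 35.45% would be by chance. Peak lists give no read counts, so depth is unknown. Lists were joined to samples by the condition abbreviation and number in the file headers.

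A peak belonged to the gene of the RefSeq transcript in its annotation, if inside it; 5224 of 5234 transcripts (99.8%) matched a RefSeq gene of mm10. This gene differed from the authors' nearest gene in 35.5% to 40.6% of such peaks. Strand was not used, since all peaks carry a plus sign. Conditions were compared by exact permutation of lists. Genes named are the hemicentins, the neighbours of Hmcn1, Thoc5, members of the basement membrane list with peaks in at least 4 lists or groups that do not overlap, and the 5 genes most like Hmcn1; the other fibulins and the cell type markers were named with their values known. Members and lists were chosen with earlier results of these data known. Alternatives were stricter score thresholds, shorter lists, other gene assignment, exons only, no repeats, counts per 1000 peaks, 50% overlap, a replicate block and leaving out each list. Python 3.11.15, pandas 2.3.3 and numpy 2.4.6 were used, and the counting was tested on simulated data.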

Additional observations from a re-analysis of the deposited data

How the results depend on the processing

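Every setting recounted the same lists, from which Hmcn1 was chosen for its higher count with overexpression, so the first difference below is only described. The difference of Hmcn1 between overexpression lists and Pi and Ctrl lists (18.5 peaks per list) kept its sign in every setting tried. It was 13.25 with the common score floor, 10.5 with lists cut to the shortest, 9 by the nearest gene, 7 with exon and UTR peaks only, 3 above the median score, and 4.98 as peaks per 1000. Leaving out 1 list gave 17.42 to 20.42. THOC5 OE minus GFP OE (4.5) turned to -3 in lists cut to the shortest, -0.5 with exon and UTR peaks only and -0.5651 per 1000 peaks, was 0 by the nearest gene, 5.5 with the common floor and 5 above the median score (both with an exact p of 0.3333, the smallest possible), and ranged from 1 to 8 without 1 list. Pi minus Ctrl (-0.5) was 0.5 with exon and UTR peaks only, 0 above the median score, in cut lists, by the nearest gene and with the common floor, and -2 to 1 without 1 list. With the replicate number as a block these differences stayed at 4.5 and -0.5, each with an exact p of 1; nothing shows that the numbers pair lists. The intron share in overexpression lists (60.84%) was 45.4% with the common floor, 37.31% in cut lists and 31.11% above the median score, where it rests on 12 peaks and shared sites numbered 4 in place of 24. The 108 genes set apart in either direction were 62 above the median score, 66 in cut lists, 62 with the common floor (29 above and 33 below) and 193 per 1000 peaks. Without 1 list they were 129 to 198: 198 without GFP OE 2, 166 without Pi 1 (83 above and 83 below) and 182 without Ctrl 2. More genes lay above than below in every setting but the common floor and the one without Pi 1. The score thresholds, cut lists, exon and UTR setting and left-out lists leave fewer peaks or lists; the cause of the other changes was not tested.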
